A study of Caenorhabditis elegans with 154 samples.

Results

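The mRNA levels of 7 autophagy genes were followed in single starved L1 larvae of *C. elegans* over 4 arrest densities. They were picked by sequence name from known roles in autophagy, by a rule that uses none of their values but was set with earlier results of these data known. They are 7 of the 46766 genes listed for both strains. The members are *unc-51* (Y60A3A.1), *bec-1* (T19E7.3), *atg-18* (F41E6.13), *lgg-1* (C32D5.9), *lgg-2* (ZK593.6), *sqst-1* (T12G3.1) and *hlh-30* (W02C12.3). Eggs from bleached, well-fed adults were left in M9 buffer with polyethylene glycol and no bacteria at 1, 5, 20 and 100 eggs per μL, where they hatched and arrested as L1s overnight. The strains were wild-type N2 and the *fog-2(q71)* mutant, whose XX animals make no sperm. The paper used N2 hermaphrodites but mated *fog-2* males with females, and the sex of single larvae was not used here. There were 14, 22, 20 and 24 *fog-2* animals at the rising densities and 13, 22, 16 and 23 N2 animals. All animals were starved, so no fed group stands beside them. One animal gave one library, and the authors deposited its levels in tpm, which corrects for transcript length and sums to the same total in every animal.

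Autophagy is the route by which a cell encloses part of its own cytoplasm in a double membrane and delivers it to the lysosome for breakdown. UNC-51, the worm ATG1 kinase, starts the process, and BEC-1, the Beclin homolog, belongs to the lipid kinase complex that marks the forming membrane. ATG-18 binds the lipid made there, the ATG8 homologs LGG-1 and LGG-2 are attached to the membrane, and SQST-1, the p62 homolog, carries ubiquitinated cargo into it. HLH-30, the TFEB homolog, is a transcription factor that activates autophagy and lysosome genes in fasted worms, and starved L1s are known to need autophagy to survive. The values below are levels of mRNA, and no autophagic activity was measured.

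The members' mRNAs spanned a wide range of abundance. *lgg-1* was the most abundant in both strains, with a median of 393 tpm over the 80 *fog-2* animals and 604 tpm over the 74 N2 animals. It was followed by *lgg-2* (336 and 315 tpm), *sqst-1* (126 and 237 tpm), *atg-18* (100.0 and 78.1 tpm) and *hlh-30* (52.1 and 37.8 tpm). *unc-51* (25.4 and 19.5 tpm) and *bec-1* (15.3 and 21.6 tpm) came last and exchanged places between the strains. Counted within animals, neighbors in this order were not always apart: *lgg-1* exceeded *lgg-2* in 51 of 80 *fog-2* animals and 73 of 74 N2 animals, and *lgg-2* exceeded *sqst-1* in 79 of 80 and 44 of 74. *bec-1* exceeded *unc-51* in 42 of 74 N2 animals, so these genes were not separated there. The strains were tabulated apart, and these levels are set side by side between them without a test.

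**Figure D1:**
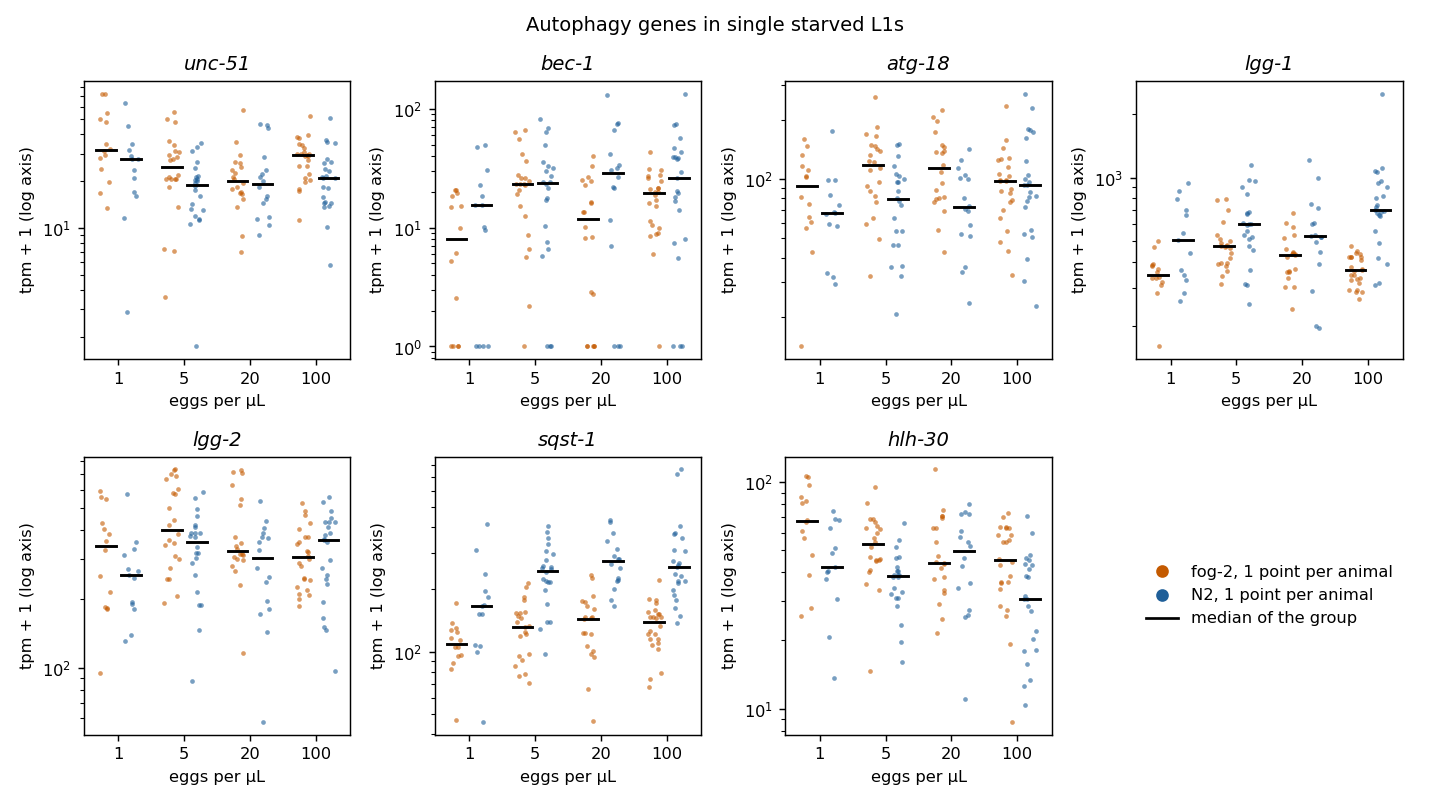
Level of each member in every animal (tpm + 1, logarithmic axis) against arrest density in eggs/μL, with *fog-2* in orange, N2 in blue and a black bar at the median of each group. The medians of *sqst-1* were lowest at 1 egg/μL in both strains (108 and 166 tpm), and *bec-1* was listed at 0 in animals of every group.

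With single animals as units, *sqst-1* and *bec-1* were called higher and *hlh-30* lower at 100 than at 1 egg/μL. The other 4 members did not pass the test. The comparison used limma with strain as a covariate on log2(tpm + 1) over 16469 genes in 74 animals, with Benjamini-Hochberg adjustment over all of them and a threshold of 0.05. Thus 2 of 7 members were called higher, beside 10.3% of all genes tested, and 1 of 7 lower, beside 2.05%. With so few members, these shares do not set them apart from all genes. The labels do not say whether animals of a density shared a culture. With means of the animals that share a digit in their column names, no member was called. There the adjusted p in limma was 0.0537 for *bec-1*, 0.444 for *sqst-1* and 0.344 for *hlh-30*, and 502 of all genes were called higher and 87 lower. The median gene itself moved by 0.24 on the log2 scale toward 100 eggs/μL, and by 0.04 after quantile normalization. Relative to that median, *bec-1* stood at 1.07, *sqst-1* at 0.28 and *hlh-30* at -0.79. The split of all calls was 1700 higher and 338 lower on the deposited scale, 402 and 391 after quantile normalization, and 159 and 286 with the count of detected rows, those at 1 tpm or more, added as a covariate. With a filter of 10 tpm on average, which all 7 members passed, the split was 308 and 230 among 7608 genes. The median change was then 0.12, so the shares of all genes depend on the levels included.

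**Figure D2:**
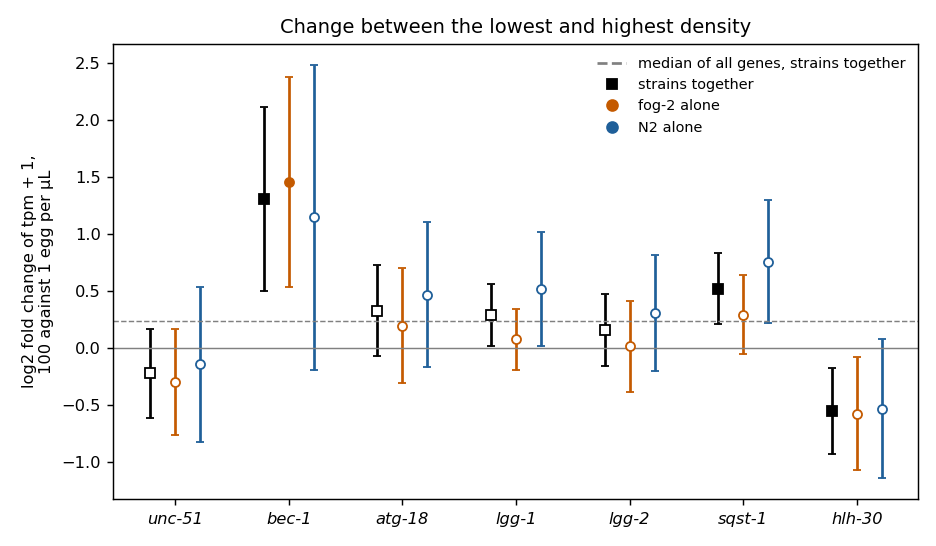
Log2 fold change of tpm + 1 at 100 against 1 egg/μL for each member, in both strains together (squares), *fog-2* alone (orange) and N2 alone (blue), with 95% intervals. Filled symbols passed at an adjusted p under 0.05, and the dashed line is the median of all genes at 0.24. *bec-1*, *sqst-1* and *hlh-30* passed with the strains together.

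*sqst-1*, the cargo receptor gene, had its lowest median at 1 egg/μL in both strains. In N2 the lowest, median and highest levels were 44.6, 166 and 412 tpm at 1 egg/μL and 96.8, 246 and 404 tpm at 5. They were 166, 273 and 432 tpm at 20 eggs/μL and 136, 257 and 761 tpm at 100. The groups overlapped, but 20 of 23 N2 animals at 100 eggs/μL lay above the median at 1 egg/μL. In *fog-2* the same values were 45.6, 108 and 171 tpm at 1 egg/μL, 69.4, 131 and 214 tpm at 5, 45.1, 143 and 233 tpm at 20, and 66.8, 138 and 220 tpm at 100. There 19 of 24 animals at 100 eggs/μL lay above the median at 1 egg/μL, and the shift was smaller than in N2. The ratio of mean levels at 100 over 1 egg/μL was 1.65 in N2 and 1.23 in *fog-2*.

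With the strains together, the log2 fold change of *sqst-1* was 0.52 (SE 0.16, limma, adjusted p = 0.0212). In the strains alone it was 0.76 in N2 (adjusted p = 0.317) and 0.29 in *fog-2* (adjusted p = 0.335), and neither passed in limma. The difference between them, 0.47 (SE 0.32, limma interaction term, adjusted p = 0.827), did not pass either. Two-sided permutation tests, unadjusted and among 14 such tests over members and strains, gave p = 0.00262 in N2 and p = 0.0501 in *fog-2*. Over all animals, the slope of *sqst-1* was 0.23 per step of log10 density (SE 0.07, limma, adjusted p = 0.00967). A contrast of 20 with 1 egg/μL, chosen after the values were seen, put *sqst-1* higher by 0.54 (SE 0.15) in log2 units, at an adjusted p of 0.0406 in limma. It was the 1 member called in it, beside 1.19% of all genes. The change between 20 and 100 eggs/μL was -0.01 (SE 0.13), so the levels at 20 and 100 eggs/μL lay close together. The call at 100 against 1 egg/μL was lost after quantile normalization (log2 fold change 0.46, adjusted p = 0.07), after upper quartile scaling (0.41, adjusted p = 0.123) and with detected rows as a covariate (0.56, adjusted p = 0.0582). The slope kept its call under the 4 alternatives run on it, pseudocounts of 0.1 and 10, quantile normalization and the covariate. Upper quartile scaling and alternatives that left out or grouped animals were not run on the slope.

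*hlh-30*, the gene for the transcription factor above the pathway, moved the other way. In *fog-2* the lowest, median and highest levels were 24.6, 66.6 and 106 tpm at 1 egg/μL and 13.6, 52.1 and 94.4 tpm at 5. They were 20.7, 43.2 and 113 tpm at 20 eggs/μL and 7.71, 44.3 and 72.4 tpm at 100. Only 2 of 24 *fog-2* animals at 100 eggs/μL exceeded the median at 1 egg/μL, and 6 of 14 animals at 1 egg/μL exceeded every animal at 100. In N2 the levels were 12.7, 41.4 and 74.0 tpm at 1 egg/μL, 15.0, 37.5 and 65.0 tpm at 5, 10.0, 48.5 and 78.9 tpm at 20, and 9.37, 29.6 and 69.8 tpm at 100. There the median was highest at 20 eggs/μL, and the low values were those of 100 eggs/μL, where 7 of 23 animals exceeded the median at 1 egg/μL. Ratios of mean levels at 100 over 1 egg/μL were 0.669 in *fog-2* and 0.702 in N2.

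The log2 fold change of *hlh-30* with the strains together was -0.55 (SE 0.19, limma, adjusted p = 0.0453). It was -0.57 in *fog-2* (adjusted p = 0.161) and -0.53 in N2 (adjusted p = 0.517), neither past the threshold, and unadjusted two-sided permutation tests gave p = 0.0136 and p = 0.0429. Adjusted over the 14 permutation tests of members and strains, these were 0.0633 and 0.117, so neither passed. The slope over all animals was -0.25 per step of log10 density (SE 0.08, limma, adjusted p = 0.0204), 1 of 7 members called lower beside 2.34% of all genes, and *sqst-1* was the 1 of 7 called higher beside 12.8%. The slope of *hlh-30* passed under the same 4 alternatives as that of *sqst-1*, none of which left out or grouped animals. Its level also followed the number of rows at 1 tpm or more in the animal (r = 0.43 over all animals, after subtracting each group's mean), a count whose median rose in *fog-2* from 11945 at 1 egg/μL to 13686 at 100 and stood at 10139 and 10606 in N2. With that number as a covariate, the log2 fold change of *hlh-30* was -0.81 (limma, adjusted p = 0.0125). Its call was lost with a pseudocount of 0.1 (adjusted p = 0.0566), with no filter on low values (0.0602) and with columns of labelled animals alone (0.147). The last of these leaves out 8 of the 14 *fog-2* animals at 1 egg/μL.

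*bec-1* was the least evenly measured member. It was listed at 0 in 4, 1, 5 and 1 *fog-2* animals at the rising densities and in 4, 3, 3 and 3 N2 animals, while each of the other 6 members was above 0 in every animal. In *fog-2* its median and highest levels were 7.04 and 19.9 tpm at 1 egg/μL, 22.3 and 65.0 tpm at 5, 10.8 and 39.3 tpm at 20, and 18.5 and 42.3 tpm at 100. Thus 22 of 24 animals at 100 eggs/μL exceeded the median at 1 egg/μL, and 10 exceeded every animal at 1 egg/μL. In N2 the median and highest levels were 14.4 and 48.9 tpm at 1 egg/μL, 22.6 and 80.8 tpm at 5, 27.7 and 130 tpm at 20, and 25.4 and 133 tpm at 100. Here 16 of 23 animals at 100 eggs/μL lay above the median at 1 egg/μL.

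With the strains together, the log2 fold change of *bec-1* was 1.31 (SE 0.41, limma, adjusted p = 0.0257). In *fog-2* alone it was 1.46 (adjusted p = 0.0493), the 1 member called in that strain beside 6.76% of all genes, and in N2 it was 1.15 (adjusted p = 0.523). The call in *fog-2* was lost in 13 of its 18 alternatives, both pseudocounts, both rescalings and each digit left out among them. Counted by detection, *bec-1* was above 0 in 19 of 27 animals at 1 egg/μL and 43 of 47 at 100 (two-sided Fisher's exact test, p = 0.0243, unadjusted and chosen after the values were seen). That count pooled the strains, and within them the same test gave p = 0.0519 in *fog-2* and p = 0.225 in N2. Among animals above 0, the medians at 1 and 100 eggs/μL were 14.02 and 18.9 tpm in *fog-2* and 17.6 and 32.9 tpm in N2. The size of the change depended on the pseudocount, from 2.03 with 0.1 to 0.60 with 10, and it fell to 0.81 with detected rows as a covariate (limma, adjusted p = 0.353). A noncoding RNA gene overlaps *bec-1* on the opposite strand, and reads of the pair cannot be told apart, since strand was not stated to be used.

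The ATG8 homologs, *lgg-1* and *lgg-2*, were not called between 100 and 1 egg/μL. In *fog-2* the lowest, median and highest levels of *lgg-1* were 158, 347 and 502 tpm at 1 egg/μL, 314, 472 and 788 tpm at 5, 238, 430 and 681 tpm at 20, and 265, 363 and 474 tpm at 100. The median was thus highest at 5 eggs/μL and near its starting point at 100, and the F test over the 4 densities called *lgg-1* in *fog-2* (limma, adjusted p = 0.0269). *bec-1* was the other member called in that test (adjusted p = 0.0396), so that 2 of 7 passed beside 8.95% of all genes. In N2 the levels of *lgg-1* were 260, 504 and 938 tpm at 1 egg/μL, 253, 600 and 1140 tpm at 5, 194, 528 and 1214 tpm at 20, and 309, 704 and 2488 tpm at 100. The highest median was here at 100 eggs/μL. No member passed the F test in N2 at an adjusted p under 0.05 (limma), beside 0.333% of all genes, and *sqst-1* alone had an unadjusted p under 0.05 (0.00438). After quantile normalization the F test in *fog-2* called neither gene.

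The log2 fold change of *lgg-1* at 100 against 1 egg/μL was 0.29 (95% interval 0.02 to 0.56, limma, adjusted p = 0.171), made up of 0.08 in *fog-2* and 0.52 in N2. The difference between strains, 0.44 (SE 0.28, limma interaction term, adjusted p = 0.813), did not pass. For *lgg-2* the median levels were 341, 400, 322 and 303 tpm in *fog-2* and 254, 354, 299 and 359 tpm in N2, and its log2 fold change was 0.16 (95% interval -0.16 to 0.47, limma, adjusted p = 0.593). The single values of *lgg-2* ran from 56.8 to 735 tpm over all animals, and every group overlapped every other. *lgg-2* made up 46.9% ± 11.8 (SD, n = 14) of the summed *lgg-1* and *lgg-2* level at 1 egg/μL and 45.5% ± 8.05 (SD, n = 24) at 100 in *fog-2*. The share was 33.5% ± 8.77 (SD, n = 13) and 31.1% ± 9.93 (SD, n = 23) in N2, so it shifted by less than its spread between animals in both strains.

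*unc-51* and *atg-18* were not called in any comparison. The medians of *unc-51*, the kinase gene, were 30.5, 23.6, 19.01 and 28.2 tpm in *fog-2* and 26.7, 17.96, 18.1 and 20.0 tpm in N2, with single animals from 0.73 to 71.8 tpm. Its median was highest at 1 egg/μL in both strains, and the log2 fold change at 5 against 1 egg/μL was -0.51 (SE 0.20, limma, unadjusted p = 0.014, adjusted p = 0.315). At 100 against 1 egg/μL it was -0.22 (95% interval -0.62 to 0.17, limma, adjusted p = 0.53). For *atg-18* the medians were 91.1, 117, 112.3 and 96.9 tpm in *fog-2* and 66.2, 78.0, 70.8 and 92.1 tpm in N2, with single animals from 13.2 to 270 tpm. Its log2 fold change was 0.33 (95% interval -0.07 to 0.73, limma, adjusted p = 0.314). These intervals leave room for changes as large as that of *sqst-1*.

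No single step between neighboring densities carried a call. None of the members passed at 5 against 1 egg/μL, where 0.857% of all genes did, at 20 against 5, where 0.518% did, or at 100 against 20, where 8.01% did (limma). At 5 against 1 egg/μL 5 members had an unadjusted p under 0.05, as did 1855 of all 18911 genes. Their log2 fold changes were 1.29 for *bec-1*, 0.41 for *lgg-2*, 0.40 for *sqst-1*, 0.34 for *lgg-1* and -0.51 for *unc-51*, at adjusted p of 0.178 to 0.315 in limma. At 100 against 20 eggs/μL *hlh-30* alone reached that level (-0.37, unadjusted p = 0.0201, limma, adjusted p = 0.139), as did 3874 of all genes, and at 20 against 5 none of the members did. In N2 alone no member was called at 100 against 1 egg/μL, beside 0.249% of all genes, and *lgg-1* and *sqst-1* had an unadjusted p under 0.05, as did 1785 of the 16469 genes. No member passed the limma interaction test of a difference between strains, where 0.0% of all genes were called and 1114 had an unadjusted p under 0.05. None of the members had one there.

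Column names carried a digit of 1, 2 or 3 after the density, whose meaning the labels do not give. Within strain and digit, mean log2 levels of *bec-1* were higher at 100 than at 1 egg/μL in 6 of 6 groups, with differences from 0.47 to 3.63. For *sqst-1* this held in 5 of 6 groups, from -0.14 to 0.92, and *hlh-30* was lower at 100 eggs/μL in 5 of 6 groups, from -1.29 to 0.27. *lgg-1* was higher in 5 of 6 groups (-0.08 to 0.54) and *unc-51* lower in 4 of 6 (-1.77 to 0.20). One of these groups, N2 with digit 1, held 1 animal at 1 egg/μL. With the strain and digit as a replicate block, *bec-1* kept its call (log2 fold change 1.55, limma, adjusted p = 0.0147), while *sqst-1* (0.44, adjusted p = 0.0675) and *hlh-30* (-0.56, adjusted p = 0.0703) did not. Leaving out the animals of any 1 digit ended all 3 calls, and no sign changed. Calls over all genes fell as well, from 1700 higher and 338 lower to 412 and 256 without digit 1. They were 756 and 155 without digit 2, and 134 and 55 without digit 3. Without digit 3 *sqst-1* stood at 0.27 (limma, adjusted p = 0.559) and *bec-1* at 2.01 (adjusted p = 0.0543).

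**Figure D3:**
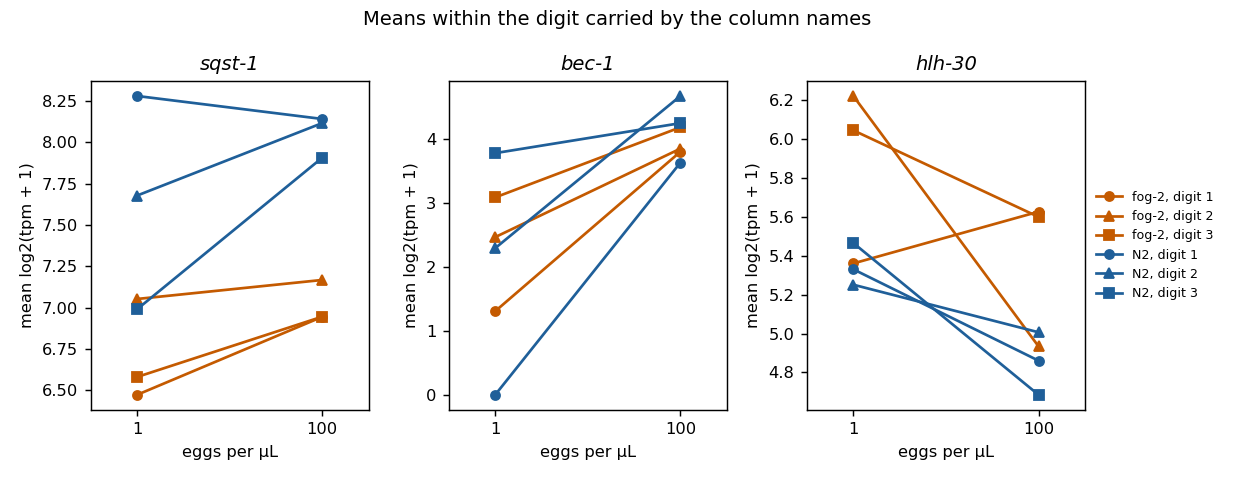
Mean log2(tpm + 1) of *sqst-1*, *bec-1* and *hlh-30* at 1 and 100 eggs/μL within each strain and column-name digit, 1 line per strain and digit. *bec-1* rises in 6 of 6 lines, *sqst-1* in 5 of 6, and *hlh-30* falls in 5 of 6.

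The members varied between animals of a group partly together. After subtracting each group's mean, log2 levels over the 80 *fog-2* and 74 N2 animals correlated best between *lgg-2* and *atg-18* (Pearson's r = 0.46) and between *lgg-1* and *lgg-2* (r = 0.43). *lgg-1* and *bec-1* had r = 0.36, and *sqst-1* and *bec-1* r = 0.05. *unc-51* ran against *lgg-1* (r = -0.29), *bec-1* (-0.23) and *lgg-2* (-0.21). All points share the depth and detection of their library, and the number of detected rows itself correlated with *bec-1* (r = 0.27), *lgg-2* (0.26) and *atg-18* (0.24), so these are descriptions only.

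Outside the 7 members, the most similar genes among 6423 of at least 10 tpm on average in each strain were found by the correlation of log2 levels over all animals, with only each strain's mean removed. Differences in density and in the detection of each library were not removed, so these are descriptions only. *hlh-30* was most like *egl-30*, a Gq alpha subunit gene (r = 0.65), *daf-7*, a TGF-beta ligand gene (0.65), and *myo-2*, a pharyngeal myosin gene (0.63). *atg-18* was most like the kinase gene *akt-1* (0.62), the receptor phosphatase gene *clr-1* (0.62) and the ABC transporter gene *ced-7* (0.61). For *sqst-1* these were *C30E1.9* (0.51), the proton pump subunit gene *vha-13* (0.46) and *drap-1* (0.44). *lgg-2* was most like *mstr-1* (0.69), *sde-2* (0.66) and *F25B5.3* (0.63), and *lgg-1* like *F07H5.4* (0.50), *C08G9.1* (0.50) and *ZK1128.7* (0.48). *unc-51* was nearest to the myosin light chain gene *mlc-3* (0.53) and the respiratory chain genes *nuo-5* (0.50) and *ucr-2.1* (0.48), and *bec-1* to *cra-1* (0.44), *K09G1.1* (0.42) and *mrpl-50* (0.41).

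The rest of the pathway was followed with lists of its steps. Of 78 other genes tested on them, 4 were called higher (5.13%) and 1 lower (1.28%) at 100 against 1 egg/μL, beside 10.3% and 2.05% of all genes. Their median log2 fold change was 0.11, beside 0.24 over all genes. These backgrounds include many low genes. With a filter of 10 tpm on average, 308 of 7608 genes were called higher and 230 lower, at a median of 0.12. At that filter 3 of the other list genes were called, but the number of them that passed it was not counted. The lists are therefore not compared here with genes of like level. The initiation list (median 0.07) had no call in 4 genes tested, *unc-51* included, and the smallest p belonged to *epg-7*, a scaffold gene (0.55, limma, adjusted p = 0.218). In the lipid kinase list (median 0.36) *bec-1* was the 1 of 4 called. Among 6 genes for lipid binding, ATG-9 and ATG-2 (median 0.10), *epg-4*, the worm EI24 homolog, was called higher at 0.97 (SE 0.32, limma, adjusted p = 0.0324). None of the 11 conjugation genes passed (median 0.27), with *lgg-3*, the ATG12 homolog, closest at 1.13 (adjusted p = 0.0904).

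Of 7 cargo genes tested (median 0.23), 2 were called higher, *sqst-1* and *epg-2*, a nematode adaptor for aggregate clearance (0.92, SE 0.30, limma, adjusted p = 0.031). None of the 10 fusion genes passed (median 0.30), with *snap-29*, a SNARE gene, closest at 0.49 (adjusted p = 0.0798). On the lysosome list of 20 genes (median 0.24), *cpr-1*, a cathepsin B-like protease gene, rose by 1.37 (SE 0.39, adjusted p = 0.0138). Its mean level went from 122 to 346 tpm in *fog-2* and from 184 to 384 tpm in N2. Its change was 0.86 with detected rows as a covariate (adjusted p = 0.285) and 0.72 without digit 3 (adjusted p = 0.487), which ended the call. *lipl-1*, a lysosomal lipase gene, fell by 1.47 on the log2 scale (adjusted p = 0.0057), with mean levels at 1 and 100 eggs/μL of 16.7 and 1.81 tpm in *fog-2* and 6.25 and 0.232 tpm in N2. Its median over all animals was 0.0 tpm. Without digit 3 it stood at -0.98 (adjusted p = 0.212). *lipl-6* was called higher (adjusted p = 0.0357) at mean levels of 1.74 and 1.05 tpm at 100 eggs/μL, and was listed at 0 in all *fog-2* animals at 1 egg/μL. The calls of *epg-4*, *epg-2* and *lipl-6* were also lost without digit 3 and with detected rows as a covariate. Over all genes, 134 were called higher and 55 lower without digit 3, and 159 and 286 with the covariate. None of the 21 proton pump genes passed (median -0.09), and the one with the smallest p was *vha-12* (-0.47, adjusted p = 0.139). On the list of *hlh-30* and 1 other gene, *hlh-30* was the 1 of 2 called.

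**Figure D4:**
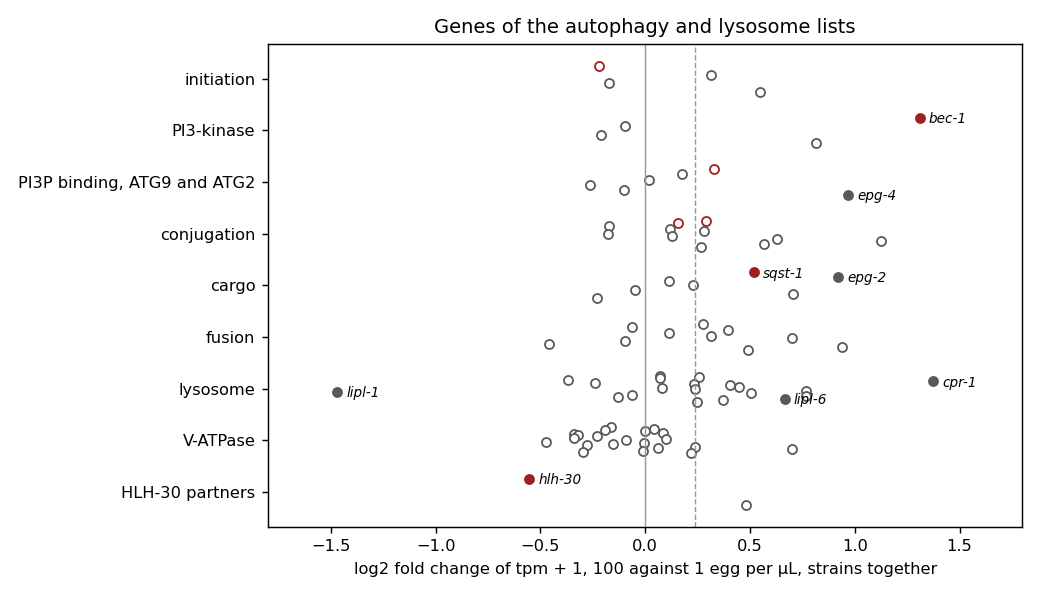
Log2 fold change of tpm + 1 at 100 against 1 egg/μL, strains together, of every tested gene on the autophagy and lysosome lists, with members in red and other genes in gray. Filled points passed at an adjusted p under 0.05 and are named, and the dashed line is the median of all genes at 0.24. The proton pump genes center near 0, at a median of -0.09.

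Other features of the animals changed with density alongside these genes. Summed markers of muscle, gut, epidermis and neurons had medians above 0 in every group, and none of the 9 tested was called. The 5 yolk protein genes of adult gut did not reach the filter, and their summed level was 21.9 tpm at most. Of 15 genes on a list of oocytes and early embryos, which should be low in L1s, 7 were called higher at 100 eggs/μL (limma). This share was 46.7%, beside 10.3% of all genes. The median log2 fold change of these genes was larger in *fog-2* (1.02) than in N2 (0.33). No call among them remained with a filter of 10 tpm, with detected rows as a covariate, or without digit 1 or digit 3. They lay near the floor, and the highest median over all animals was 1.935 tpm (*cpg-1*). Their summed level ranged from 0.0 to 33.4 tpm with a median of 16.5 tpm at 1 egg/μL in *fog-2*, and from 9.26 to 492 tpm with a median of 68.1 tpm at 100. In N2 the medians were 14.04 and 18.96 tpm, with highest animals of 79.5 and 124 tpm. Without the 7 animals above 100 tpm on that list, all at 100 eggs/μL, *sqst-1* kept its call (log2 fold change 0.54, limma, adjusted p = 0.0252), while *bec-1* (1.19, adjusted p = 0.0622) and *hlh-30* (-0.52, adjusted p = 0.0778) did not. This alternative was chosen after the values were seen, and the part of these animals in the member changes was not tested further. In whole animals, fewer cells of a type and less RNA per cell cannot be told apart.

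In the ce11 (WBcel235) assembly, *lgg-1* is on chromosome II (6346960 to 6347719), *lgg-2* (10934196 to 10935903), *bec-1* (5661141 to 5664425), *sqst-1* (12034282 to 12036891) and *hlh-30* (4014793 to 4034951) are on IV, and *unc-51* (19995986 to 20004485) and *atg-18* (8629174 to 8631327) on V. All 7 are annotated as protein coding, *sqst-1* on the plus strand and the others on the minus strand. The authors' tables give each as 1 row that groups several transcripts where there are any, so levels of single isoforms were not analysed. *hlh-30* has 13 annotated transcripts, 11 transcripts are named in its row, and its locus overlaps noncoding RNA genes on both strands.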

How the data were processed

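Single L1s were sequenced with a Smart-Seq2 and Nextera protocol. Per the labels and the authors' methods, rRNA reads and PCR duplicates were removed and RSEM gave the deposited tpm values, and the submitters' processing notes name Bowtie and ce11, without versions. Each strain's table held 47639 rows, summed here to 46766 genes by sequence name. Of the columns, 146 were matched to a labelled animal and 8 to strain and density only, and 0 were left out. All 8 belong to the 14 *fog-2* animals at 1 egg/μL, so labelled animals alone leave the smaller part of that group. The labels do not say whether animals of a density shared a culture, so p-values may cover spread among animals of 1 culture only. Values were analysed as log2(tpm + 1), a scale that understates changes of low genes, with limma 3.58.1 (R 4.3.3, mean-variance trend) over genes reaching 1 tpm in 13 or more animals of a fit (16469 genes in 74 animals, 18911 over all animals), and in Python 3.11.15 with scipy 1.17.1. The 95% intervals are normal ones from limma's SE. Permutation tests drew 100000 resamples. Fits were tested on simulated data. The deposited values are tpm without read counts. Sequencing depth is reported in the paper but was not used here. The count of rows at 1 tpm or more was the covariate instead, and its relation to depth was not tested. Its median differed with density in *fog-2* (11945 at 1 egg/μL and 13686 at 100), so fits with it are not shown to be corrected for depth. Positions came from the Ensembl annotation of WBcel235, the same assembly as ce11. From each list the text names the called genes, at most 4, or else the gene with the smallest p. The members and lists were chosen with earlier results of these data known. Alternatives changed the pseudocount, filter, scaling, covariates, animals, block, isoforms, variance model and threshold.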

Additional observations from a re-analysis of the deposited data

How the results depend on the processing

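Of 7 members, 2 were called higher at 100 than at 1 egg/μL with the strains together. This count was 1 after upper quartile scaling, with the replicate block by name digit and without the animals high on the oocyte list. It was 0 after quantile normalization, with detected rows as a covariate, without any 1 name digit and with means by name digit. Over all genes, the 1700 calls higher became 134 without digit 3 and 502 with means by name digit. The 1 member called lower became 0 with a pseudocount of 0.1, no filter, a filter of 10 tpm on average, robust empirical Bayes, labelled animals alone, any 1 name digit left out, means by name digit, the replicate block, and without the animals high on the oocyte list. The 1 call in *fog-2* alone became 0 with a pseudocount of 0.1 or 10, no filter, a filter of 10 tpm, no trend, either rescaling, the covariate, any 1 digit left out, means by digit, and without the oocyte-high animals. No label ties a name digit to a culture or day, so the block is given only as an alternative.

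Over the 4 densities in *fog-2*, 2 calls became 1 with a pseudocount of 10 and 0 after quantile normalization, and with the covariate the 2 called were *lgg-1* and *hlh-30*. Steps between neighbors, with 0 calls, gave 1 with the covariate (*hlh-30*, 100 against 20 eggs/μL). The 1 call at 20 against 1 egg/μL became 0 with a pseudocount of 0.1 and after quantile normalization. The slope kept 2 calls under its 4 alternatives, none of which left out or grouped animals. N2 alone and the strain difference kept 0.

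The 5 calls among other pathway genes became 3 with a pseudocount of 10, a filter of 10 tpm, labelled animals alone, the replicate block or without digit 1, 2 after quantile normalization or without digit 2, 1 with the covariate, 0 without digit 3 or with means by digit, and 8 at an adjusted p under 0.1. The 7 calls on the oocyte list became 4 with a pseudocount of 10, 3 with means by digit, 2 after quantile normalization or with labelled animals alone, and 0 with a filter of 10 tpm, the covariate, or without digit 1 or digit 3.

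No called member changed sign. Among uncalled values, *lgg-2* in *fog-2* turned from 0.014 to -0.046 after upper quartile scaling, -0.19 with the covariate and -0.18 without digit 1. Its slope turned from 0.0063 to -0.060 with the covariate. Without digit 1, *atg-18* in *fog-2* turned to -0.17 and *unc-51* in N2 to 0.040. The causes were not tested. The read depth behind single values listed at 0 was not examined.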
